A study of Rattus norvegicus with 12 samples.

Results

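The transcripts of 10 immediate early response genes were followed in the duodenal mucosa of swimming and sedentary rats: Fos, Jun, Junb, Egr1, Ier2, Ier5, Atf3, Dusp1, Klf4 and Nr4a1. They were chosen by name from the array's annotation, and all 10 had a probe among those of 13337 named genes. They account for 11 of the 22523 probes, because Ier5 has 2, and the probe with the highest raw mean over the 12 arrays stood for each gene. The swimming group held 6 rats, trained for 1 week until they could swim 1 hour per day without a break and then swum on 5 days per week for 2 weeks. The other 6 were control rats of the same age that stayed sedentary in a swimming pool over the same 2 weeks. All were female Sprague Dawley rats, labelled 9 weeks old, and the water was kept at 30 to 32 °C. Epithelial cells were scraped from the mucosa of a 10 cm duodenal segment, so a scraping can also hold cells that lie under the epithelium. The total RNA was hybridised to single-colour Illumina bead arrays, 1 array per sample. In such bulk samples, fewer cells of a type and less RNA per cell cannot be told apart.

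Immediate early genes are switched on within minutes of a stimulus by factors that are already in the cell, and no new protein is needed first. Growth factors, calcium, stretch and stress reach them through mitogen-activated protein kinases, which activate serum response factor with its partners at CArG boxes and CREB at cyclic AMP response elements (CRE). Most of their messenger RNAs decay quickly. Fos, Jun, Junb and Atf3 encode leucine zipper proteins, and Fos pairs with the Jun proteins to form AP-1. Egr1 and Klf4 encode zinc finger factors, Nr4a1 an orphan nuclear receptor, and Dusp1 a phosphatase that switches the kinases off again. In the gut, Klf4 marks differentiated epithelium and takes part in goblet cell formation.

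Sequences are shown for 3 members. The correlation of Dusp1 with Egr1 across the arrays was the highest of all pairs. Ier5 had the smallest p between the groups, and the correlation of Ier2 with Fos was the most negative. The windows are the 250 bases before the annotated gene start, from RefSeq on rat assembly GRCr8, read 5′ to 3′ on the gene's strand. Capitals mark the CRE core TGACG on either strand, and a run of 8 capitals is a palindrome in which a core on each strand overlaps the other.
Dusp1: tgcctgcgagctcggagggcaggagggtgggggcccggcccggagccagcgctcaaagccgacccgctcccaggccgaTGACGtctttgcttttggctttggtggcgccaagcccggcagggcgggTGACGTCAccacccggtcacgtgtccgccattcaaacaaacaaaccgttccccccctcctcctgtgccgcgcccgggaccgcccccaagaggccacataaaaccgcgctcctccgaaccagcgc
Ier5: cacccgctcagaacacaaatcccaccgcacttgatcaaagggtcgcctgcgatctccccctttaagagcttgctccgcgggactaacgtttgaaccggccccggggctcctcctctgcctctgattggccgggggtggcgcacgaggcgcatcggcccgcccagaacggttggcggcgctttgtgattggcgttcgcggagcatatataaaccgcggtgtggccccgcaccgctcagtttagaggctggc
Ier2: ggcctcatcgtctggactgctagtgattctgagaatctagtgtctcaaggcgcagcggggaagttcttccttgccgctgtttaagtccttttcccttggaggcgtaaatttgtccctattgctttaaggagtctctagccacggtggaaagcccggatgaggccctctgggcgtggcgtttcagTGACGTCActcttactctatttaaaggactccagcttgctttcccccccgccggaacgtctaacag
The Dusp1 window lies at chr10:17184603-17184852 on the plus strand, the Ier5 window at chr13:69822543-69822792 on the minus strand and the Ier2 window at chr19:40399123-40399372 on the plus strand. The table held a window for 7 of the 10 genes. In Dusp1 the cores began 172, 124 and 121 bases before the gene start, and in Ier2 66 and 63 bases before it. The Ier5 window held none. The core was in 5 of the 7 windows searched (Junb, Egr1, Ier2, Dusp1 and Nr4a1) and in 18.2% of all 33469 windows of that length. The CArG box was in the Egr1 window alone, beginning 105 and 83 bases before the start, against 1.5% of all windows. The letters TATAA were found in Junb, Ier5 and Klf4, against 24.0% of all windows. The AP-1 site TGANTCA was in none of the 7, against 6.34%. These are matches of letters on both strands and are not measured sites.

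Some arrays went against their labels or resembled each other. The array labelled swimming 5 read 6.0 for Alpi, the brush border alkaline phosphatase, and the other 11 read 14.67 to 15.03 (log2 intensity). It read 14.93 for Car1, a carbonic anhydrase of the colon, against 6.70 to 8.82 in the others. Gata4 and Hoxa7 parted the same way, at 5.69 against 10.12 to 10.73 and 10.72 against 5.72 to 6.17. Not all markers of either segment did so. S100g, at 14.68, and Aqp8, at 10.96, lay within the other arrays (14.49 to 15.13 and 8.92 to 11.44), as did Hoxb13, and Cdh1 read above them. The spread of bright probes within 3 pairs of arrays (swimming 3 with control 3, swimming 4 with swimming 6 and control 4 with control 6) was below the noise of dim probes. In the 52 other pairs without swimming 5 the spread was at least 0.218 log2, against 0.0770 to 0.159 in these 3. Both pairs within a group were counted as 1 sample each in means and SD, so that n = 5 per group, and the third pair carries nearly the same profile into both groups. Raw median intensities lay between 62.7 and 88.8, and the number of arrays limits the precision. Nothing in the labels says how the samples were spread over slides or days.

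Swimming and control rats were not told apart by any of the 10 transcripts after adjustment. The log2 intensities, background-corrected and quantile-normalized, were compared with limma on all 12 arrays, with Benjamini-Hochberg adjustment over all 22523 probes. That fit counted near-identical arrays singly, so its SEs, intervals and p-values can be too small. None of the 10 genes passed an adjusted p of 0.05, and none of the 22523 probes did (0.0%). At an unadjusted p under 0.05 there was 1 member, Ier5, against 1076 probes or 4.78% of the array. This count depended on which arrays entered: it was 4 without control 2 (Jun, Egr1, Ier5 and Dusp1) and 0 with the near-identical pairs averaged. In all 10 genes the values of the groups overlapped, and over the array 0.182% of probes did not. 7 of the 10 read lower in swimming rats and 3 higher, where 50.6% of all probes read lower. The median difference was -0.20 for the members and -0.0015 for all probes.

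**Figure D1:**
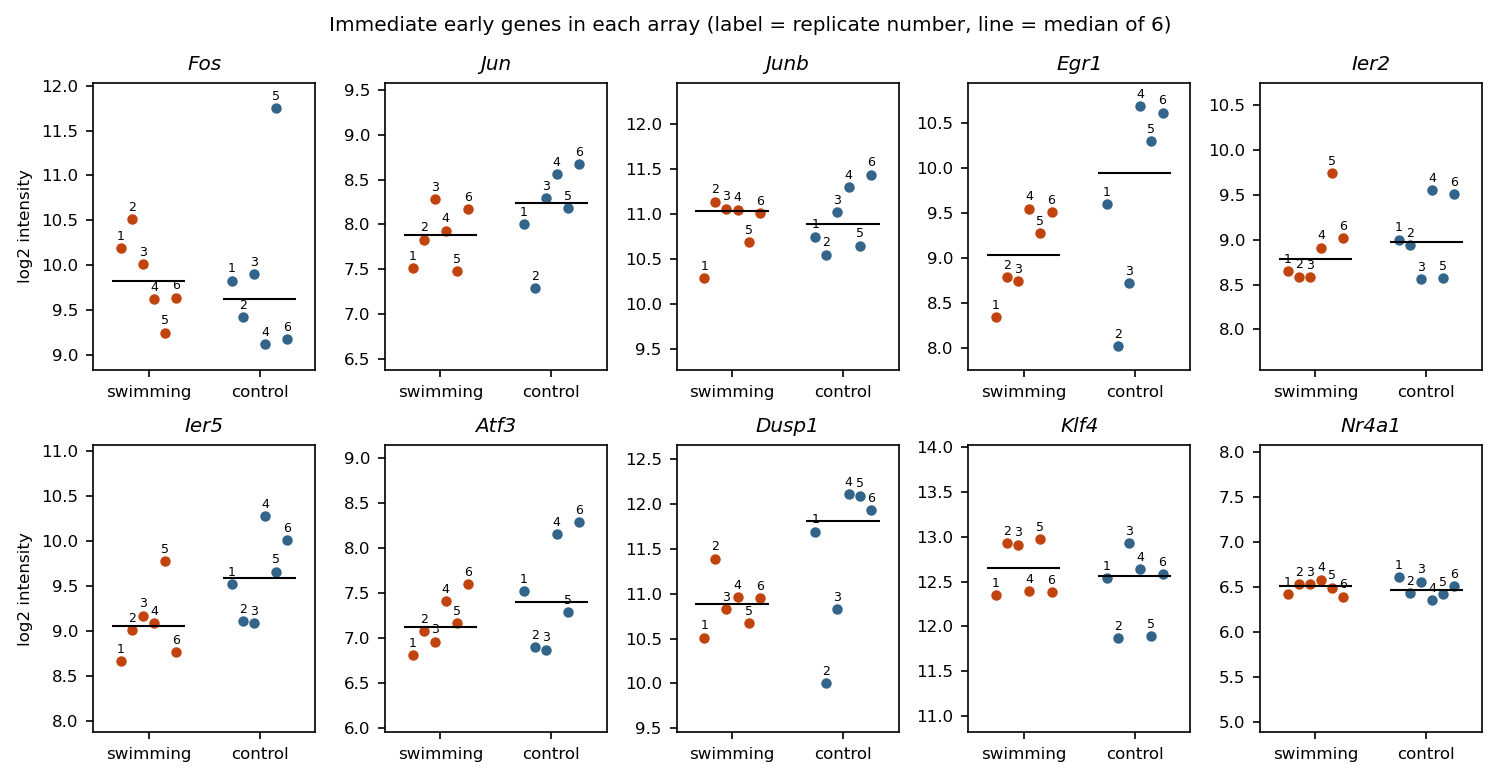
Log2 intensity of each immediate early gene in the 6 swimming and the 6 control arrays, with the replicate number beside each point and a line at the median. Every panel spans the same number of log2 units; the groups overlap in all 10 genes, and Fos in control 5 stands alone at 11.75.

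Among the leucine zipper factors, Fos had group means that were nearly equal and a wide spread. It read 9.25, 9.83 and 10.51 (lowest, median and highest) in swimming rats, against 9.12, 9.62 and 11.75 in control rats. Control 5 was the highest of the 12 arrays, and the next control array read 9.90. The fitted difference, swimming minus control, was 0.0021 log2 (SE 0.40, 95% interval -0.86 to 0.86; adjusted p from limma = 1.0). Without control 5 it was 0.38. Jun, the main partner of Fos in AP-1, read 7.48, 7.88 and 8.28 in swimming rats and 7.29, 8.23 and 8.67 in control rats. The difference was -0.30 (SE 0.22, interval -0.78 to 0.17), with 5 of 6 swimming arrays below the control mean. Control 4 and control 6 were its highest arrays and control 2 its lowest. Junb, an AP-1 subunit that often restrains Jun, read 10.29, 11.03 and 11.14 in swimming rats, against 10.55, 10.88 and 11.44 in control rats, a difference of -0.078 (SE 0.18). The Junb groups covered nearly the same range, with the lowest array in the swimming group and the highest in the control group. Atf3, a stress-induced factor, read 6.81, 7.12 and 7.60 in swimming rats and 6.87, 7.41 and 8.29 in control rats, a difference of -0.33 (SE 0.25). The high Atf3 values were those of control 4 and control 6, at 8.16 and 8.29, which are near-identical arrays.

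Egr1, induced through serum response factor, had the widest range of the members. It read 8.34, 8.79, 8.74, 9.55, 9.28 and 9.51 in swimming arrays 1 to 6. It read 9.60, 8.02, 8.72, 10.69, 10.30 and 10.62 in control arrays 1 to 6. All 6 swimming arrays lay below the control mean of 9.66, but control 2 and control 3 lay among or below the swimming arrays. With near-identical arrays counted once, Egr1 averaged 8.94 ± 0.47 in swimming and 9.46 ± 1.1 in control rats (SD, n = 5 each). The fitted difference over 12 arrays was -0.62 (SE 0.44, interval -1.6 to 0.33; adjusted p from limma = 0.911). Klf4 was the member with the largest upward difference, 0.25 (SE 0.20, interval -0.18 to 0.68). It read 12.35, 12.65 and 12.97 in swimming rats, against 11.87, 12.56 and 12.93 in control rats. Control 2 and control 5, at 11.87 and 11.89, were its lowest arrays, and the other 10 lay between 12.35 and 12.97. Nr4a1 read 6.39 to 6.58 in swimming and 6.35 to 6.61 in control rats, where the median probe of the array averaged 6.36. The difference was 0.0098 (SE 0.057), and the groups covered nearly the same narrow range.

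The feedback phosphatase Dusp1 read 10.51, 11.39, 10.83, 10.96, 10.67 and 10.95 in swimming arrays 1 to 6. In control arrays 1 to 6 it read 11.69, 10.00, 10.83, 12.11, 12.09 and 11.93. Thus 4 control arrays, among them the near-identical control 4 and control 6, stood above every swimming array. Control 2 stood below every one, and control 3 matched its near-identical partner swimming 3. Dusp1 averaged 10.87 ± 0.33 in swimming and 11.33 ± 0.89 in control rats (SD, n = 5 each), and the fit over 12 arrays gave -0.56 (SE 0.33, interval -1.3 to 0.16; adjusted p from limma = 0.911).

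Ier5, known in human cells to activate heat shock factor, had the smallest p of the members. It read 8.66, 9.05 and 9.78 in swimming rats, against 9.09, 9.59 and 10.28 in control rats. Control 4 and control 6 were the highest arrays, and swimming 1 and swimming 6 the lowest. The difference was -0.53 (SE 0.23, interval -1.0 to -0.033), at an unadjusted p of 0.0384 and an adjusted p of 0.911 (limma). Its highest swimming array was swimming 5, the one low in Alpi and high in Car1. Without that array the difference was -0.67 (SE 0.20; unadjusted p = 0.00604 and adjusted p = 0.890 from limma). The restricted comparison averages the near-identical pairs within a group and leaves out swimming 5, swimming 3 and control 3, so that 3 swimming samples meet 4 control samples. There the Ier5 difference was -0.74 (SE 0.22; unadjusted p = 0.0105 and adjusted p = 0.993 from limma). With the pairs averaged within each group and all else kept, swimming 5 included, the Ier5 difference was -0.40. Under median scaling of all 12 arrays it was -0.38. Each had an unadjusted p of 0.135 (limma). The second Ier5 probe is dim, with a raw mean of 95.5 against 674.6 for the first, and differed by 0.068 (SE 0.092). The probes thus disagreed in sign, and their r over the 8 units described below was -0.35. Ier2, a gene of the same induction class, read 8.58, 8.78 and 9.74 in swimming rats and 8.56, 8.97 and 9.55 in control rats, a difference of -0.11 (SE 0.23). Swimming 5 was again its highest array, and without it the difference was -0.27 (SE 0.19).

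**Figure D2:**
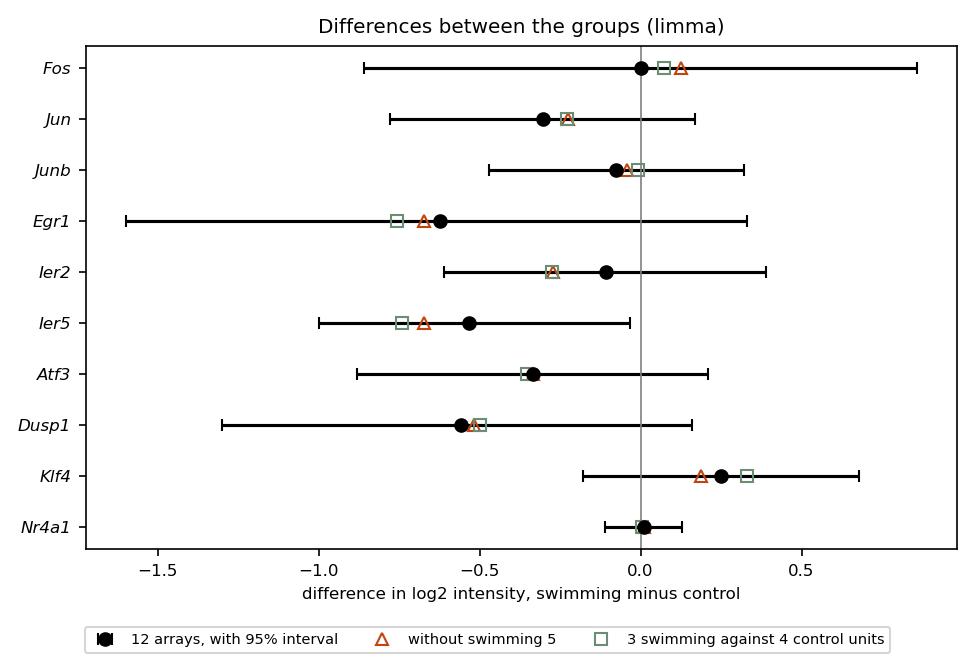
Differences in log2 intensity, swimming minus control, for the 10 genes. Black points are the fit over 12 arrays with its 95% interval, triangles the fit without swimming 5 and squares the comparison of 3 swimming with 4 control samples; the intervals of 9 genes include 0, and that of Ier5 ends at -0.033 before any adjustment.

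Egr1, Fos and Dusp1 had the widest spread of the members between arrays. For this and for co-variation the arrays were reduced to 8 units: each near-identical pair was averaged, the pair that spans the groups included, and swimming 5 was left out. Over these 8 units Egr1 spanned 6.19-fold from its lowest to its highest unit, Fos 6.04-fold and Dusp1 4.23-fold. Their SDs were 0.933, 0.806 and 0.740 log2, while the median SD of the 11261 probes brighter than the median probe was 0.205. These 3 genes stood above 99.3%, 98.8% and 98.5% of those probes in spread. The value of Fos rested on control 5: the other 7 units ran from 9.15 to 10.51, a 2.56-fold range with an SD of 0.459, above 94.9% of those probes. Leaving out any 1 unit gave SDs of 0.799 to 1.00 for Egr1 and 0.611 to 0.795 for Dusp1. Ier5 (SD 0.475), Atf3 (0.470), Jun (0.423), Klf4 (0.405), Junb (0.355) and Ier2 (0.332) stood above 80.0 to 93.1% of them. Without the mean of control 4 and control 6 the SD was 0.297 for Atf3 and 0.202 for Ier2. Nr4a1, with an SD of 0.0707, stood above 2.57%, at a mean intensity of 6.48 near that of the median probe. Only 4869 probes averaged above 8, as Egr1, Fos and Dusp1 did, so most of the 11261 were dimmer than these 3 genes. Dim probes can spread less, and shares among probes of like intensity were not computed.

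**Figure D3:**
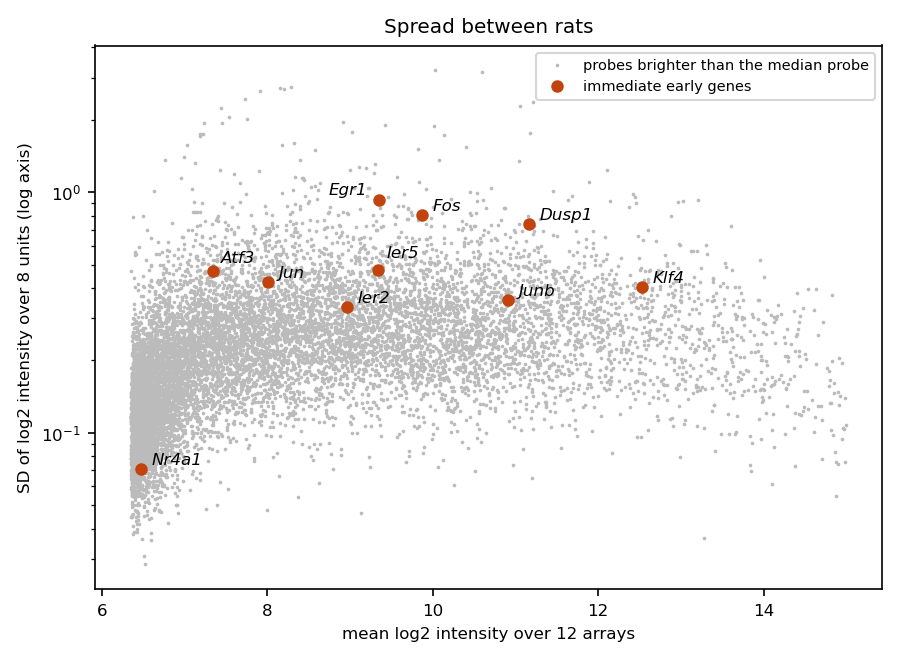
SD over 8 units (log axis) against mean log2 intensity over 12 arrays. Grey points are the 11261 probes brighter than the median probe and red points the 10 genes; Egr1, Fos and Dusp1 lie near the upper edge at SDs of 0.933, 0.806 and 0.740, and Nr4a1 near the lower edge at 0.0707.

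Egr1, Dusp1, Atf3, Ier5 and Jun tended to read high and low in the same units, though no pair passed the adjusted test. Among the 45 pairs of members the median Pearson's r over the 8 units was 0.38, while it was -0.00058 over all pairs of probes brighter than the median. r was above 0.5 in 17 of the 45 pairs (37.8%), against 15.0% of all such pairs. The closest pair was Egr1 and Dusp1, with r = 0.91 (exact permutation p = 0.00273, two-sided; adjusted over all other probes 0.296) and Spearman's rho = 0.95 (exact p = 0.00114). Without the 2 units farthest from the median of Egr1, r was 0.81. Egr1 and Atf3 had r = 0.87 (exact permutation p = 0.00347, adjusted 0.437) and rho = 0.90 (exact p = 0.00456), and r = 0.94 without the 2 farthest units. Ier2 and Atf3 had r = 0.84 (exact permutation p = 0.013, adjusted 0.614), rho = 0.57 (exact p = 0.151) and r = 0.68 without the 2 units farthest in Ier2. Egr1 and Ier5 had r = 0.83 (exact permutation p = 0.0102, adjusted 0.455), rho = 0.71 (exact p = 0.0576) and r = 0.46 without the 2 units farthest in Egr1. For Jun and Egr1 the values were r = 0.83 (exact permutation p = 0.0104, adjusted 0.393) and rho = 0.74 (exact p = 0.0458), with r = 0.58 when the 2 units farthest in Jun were left out. Leaving out the same units took r of Jun with Junb from 0.75 to 0.56, with Atf3 from 0.74 to 0.38 and with Dusp1 from 0.77 to 0.44. Egr1 had 4 of the 9 other members (44.4%) at an unadjusted exact p under 0.05, and 12.1% of all probes reached that with Egr1. The same count was 5 of 9 for Jun (9.71% of all probes), 5 of 9 for Atf3 (8.08%), 4 of 9 for Dusp1 (11.1%) and 4 of 9 for Ier5 (8.8%). It was 1 of 9 for Junb (5.54%) and for Ier2 (6.72%), and none for Klf4 (5.95%) and Nr4a1 (4.42%). Only 4869 of the 11261 brighter probes averaged above 8, as all members but Atf3 and Nr4a1 did, and the shares over all probes include still dimmer ones. Dim probes can correlate less, and shares among probes of like intensity were not computed for r either.

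**Figure D4:**
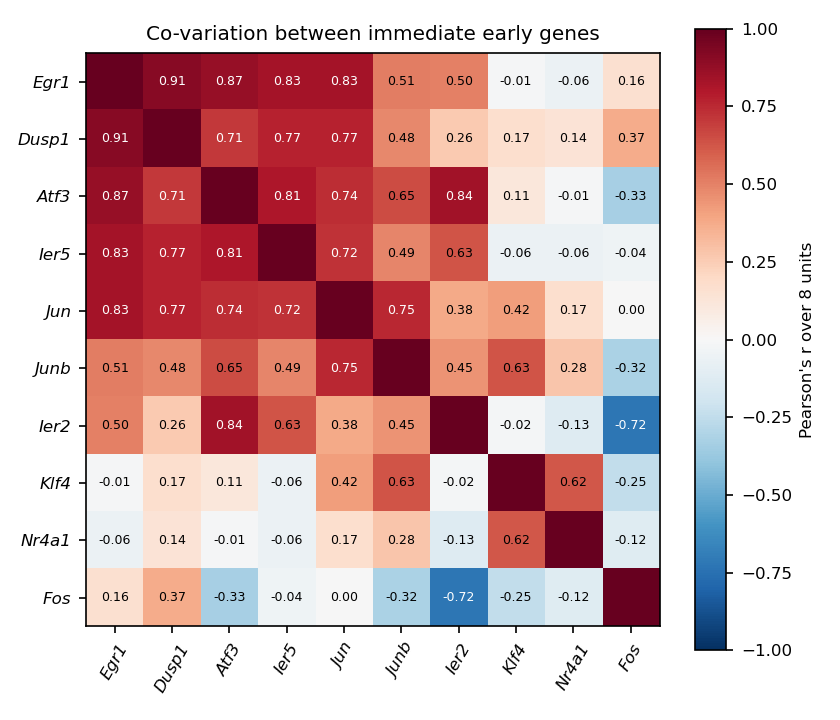
Pearson's r between the 10 genes over 8 units, with each value printed in its cell. Egr1, Dusp1, Atf3, Ier5 and Jun form a block with r between 0.71 and 0.91, and the row of Fos lies between -0.72 and 0.37. Ier5 is shown by its brighter probe alone.

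Fos had correlations near 0 with Jun and Egr1. Its r with Jun was -0.00036 (exact permutation p = 0.999) and its rho -0.12 (exact p = 0.793). With Egr1, r was 0.16 (exact permutation p = 0.737) and rho -0.048 (exact p = 0.935). The strongest relation was with Ier2, at r = -0.72 (exact permutation p = 0.0575, adjusted 0.759) and rho = -0.83 (exact p = 0.0154), and r was -0.78 without the 2 units farthest from the median of Fos. None of the 9 other members reached an unadjusted exact p under 0.05 with Fos in Pearson's r, and 10.7% of all probes did. The arrays show how the genes parted. Control 4 and control 6 were among the 3 highest of 12 arrays in 7 members, namely Jun, Junb, Egr1, Ier2, Ier5, Atf3 and Dusp1, and they were the lowest pair for Fos, at 9.12 and 9.18. Control 5 was the highest for Fos (11.75) and among the 3 highest for Egr1 and Dusp1, and it was among the 3 lowest for Junb, Ier2 and Klf4. Swimming 1 was among the 3 lowest in 8 members and control 2 in 6, and swimming 1 had the third highest Fos, at 10.19.

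**Figure D5:**
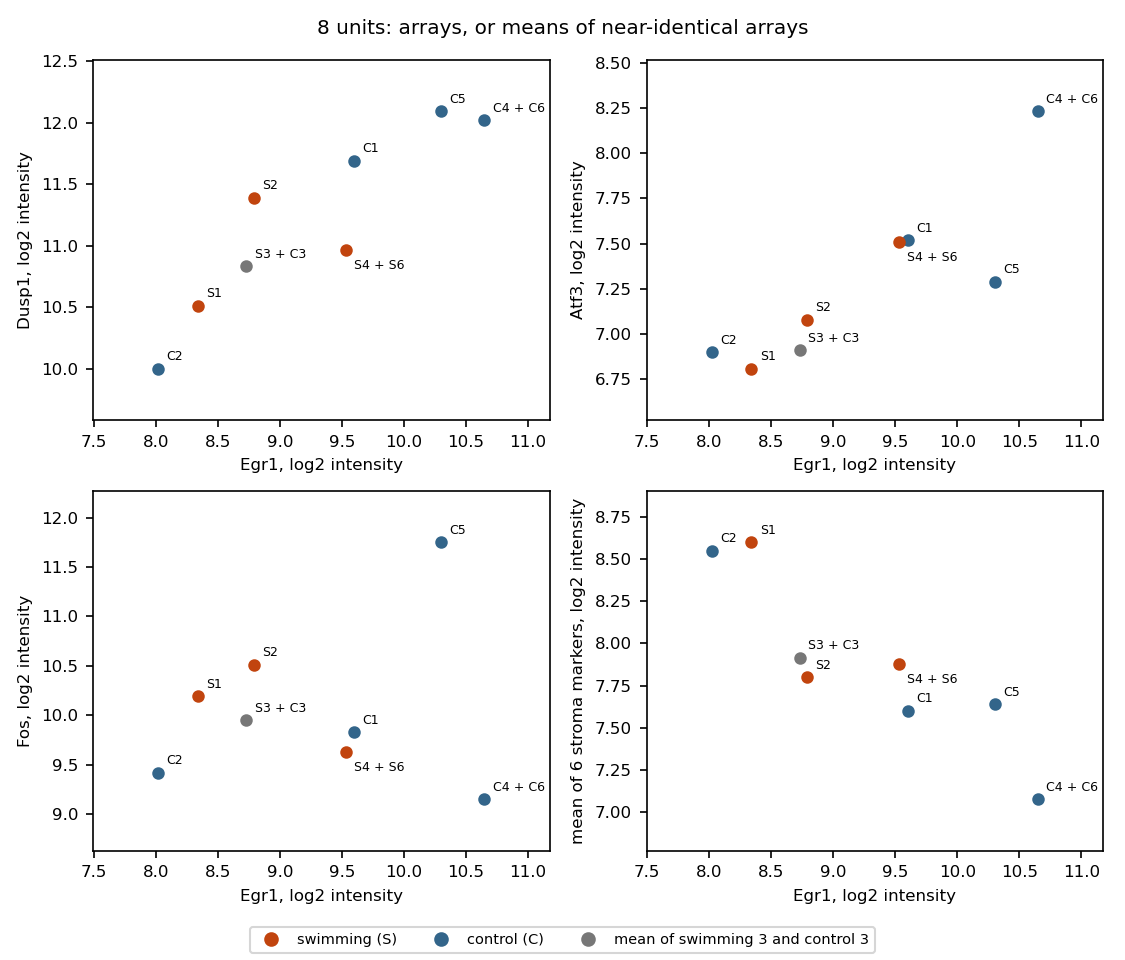
Dusp1, Atf3, Fos and the mean of 6 stroma markers against Egr1 (all log2 intensity) in the 8 units, labelled S for swimming and C for control with the replicate number. Dusp1 and Atf3 climb with Egr1, control 5 and the mean of control 4 and 6 hold the extremes of Fos at similar Egr1, and the stroma mean falls from 8.55 in C2 and 8.60 in S1 to its lowest in C4 + C6.

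Markers of stroma and of smooth muscle differed between the arrays at the ends of these profiles. The mean of 6 stroma markers (Col1a1, Col1a2, Col3a1, Dcn, Lum and Vim, all measured) was highest in swimming 1 and control 2, at 8.60 and 8.55, where Egr1 was lowest. It was lowest in control 4 and control 6, at 7.20 and 6.95, where Egr1 was highest. Over the groups it ranged from 7.71 to 8.60 in swimming and from 6.95 to 8.55 in control rats. All 6 stroma markers read higher in swimming rats, where 49.4% of all probes did. Their median difference was 0.27, and none passed the adjusted test. The mean of 3 smooth muscle markers had the same ends, with 8.16 in swimming 1, 8.10 in control 2, 7.13 in control 4 and 7.21 in control 6. That of 2 goblet markers was also highest in control 2 and swimming 1, at 13.67 and 13.54, but lowest in swimming 3, at 12.67. Blood and pancreas markers also differed: the mean of 5 red blood cell markers ran from 7.43 to 8.90 in swimming and from 8.68 to 9.34 in control rats, with swimming 5 lowest and the other swimming arrays from 8.29, and that of 8 exocrine pancreas markers from 6.65 to 10.49 in swimming and from 6.62 to 9.50 in control rats. The part of these cells in the immediate early values was not tested. Among 8 measured enterocyte markers the mean stayed between 13.27 and 13.51 in the 11 arrays other than swimming 5, which read 10.71.

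By the naming rule, the 10 brighter probes closest to Fos in pattern over the 8 units were those of Cops3 (r = 0.985), Bag6 (0.974), Tle5 (0.974), Lmo7 (0.972), Ubl7 (0.971), Pdgfa (0.966), Or5aq1d (0.964), Pacsin1 (0.962), Gpbp1 (0.960) and Commd6 (0.958). Cops3 is a subunit of the COP9 signalosome and Pdgfa a ligand of the platelet-derived growth factor receptor. Cops3 had rho = 0.93 with Fos (exact permutation p of r = 9.92e-05, of rho = 0.00223) and r = 0.94 without the 2 farthest units. Over the 10 genes r without these units ran from 0.76 for Commd6 to 0.98 for Or5aq1d. Brighter means only a mean above the median probe, at 6.36. Or5aq1d ran from 6.44 to 6.65 and Pacsin1 from 6.11 to 6.92. The adjusted exact permutation p of these 10 lay between 0.279 and 0.300, and 0 of 22522 probes passed, with 2420 at an unadjusted exact p under 0.05. None of the 10 is a gene of the immediate early lists used here.

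More immediate early genes were measured than the 10. Of 42 further ones measured, among them relatives of Egr1, Nr4a1, Dusp1 and Klf4 and the Gadd45 family, 15 had positive and 27 negative differences, swimming minus control, and 0 passed the adjusted test of limma, with 0 higher and 2 lower at an unadjusted p under 0.05. These 2 are 4.76% of the list, near the 4.78% of all probes, and 64.3% of the list read lower, against 50.6% of all probes. Their median difference was -0.048, against -0.0015 for all probes. Bhlhe40, a repressor tied to the clock, averaged 10.03 ± 0.58 in swimming and 10.71 ± 0.30 in control rats (SD, n = 5 each), and the fit gave -0.74 (SE 0.23; -0.54 without swimming 5). Nfil3, another repressor of clock outputs, averaged 8.44 ± 0.67 in swimming and 9.25 ± 0.81 in control rats, a difference of -0.92 (SE 0.37; -1.13 without swimming 5). Sik1, a kinase induced by cyclic AMP, differed by -0.34 (SE 0.16; -0.21 without swimming 5), and Hbegf, a ligand of the EGF receptor, by -0.43 (SE 0.21). The adjusted p from limma was 0.911 for these 4.

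Genes that act upstream were also sought. Of 18 measured kinases and factors that lead to immediate early genes, 2 had positive and 16 negative differences, swimming minus control, 0 passed and 0 had an unadjusted p under 0.05 (limma), against 4.78% of all probes. Thus 88.9% of the list read lower, against 50.6% of all probes, with a median difference of -0.067, against -0.0015. Map2k2, a kinase that activates ERK, averaged 14.36 ± 0.31 in swimming and 14.61 ± 0.18 in control rats (SD, n = 5 each), and the fit gave -0.26 (SE 0.13; -0.14 without swimming 5). Egfr, the EGF receptor, differed by -0.24 (SE 0.16), Crtc2, a coactivator of CREB, by -0.17 (SE 0.14; -0.27 without swimming 5) and Map2k7, a kinase that activates JNK, by -0.11 (SE 0.072). Map2k7 was dimmer than the median probe. The adjusted p from limma was 0.911 for these 4.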

How the data were processed

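The authors deposited a raw table of average bead signals, which per the file headers are intensities on a linear scale, and a table of processed intensities of the same arrays. The raw values have no value below 0 and differing medians. The processed values have 26.2 to 26.3% below 0 and a median of 16.01 in every array, and how they were made is not stated in the labels or headers. Raw intensities were corrected with normexp (offset 50), put on the log2 scale and quantile-normalized (limma 3.58.1, R 4.3.3). All 22523 probes were kept and fitted with lmFit and eBayes, two-sided. Probe names came from the platform annotation, updated through Entrez identifiers with the table of assembly GRCr8: 13793 probes have 1 symbol, 13752 of them matched by identifier, and 8730 are unnamed here. No detection p-values were used. A pair of arrays was called near-identical where its log2 differences had a smaller spread over the 4869 probes with a mean above 8 than over the 5192 with a mean under 6.1. Pearson's r was tested over all 40320 orders of the 8 units, with a smallest possible p of 2.5e-05, and adjusted over 22522 probes. The fit and the permutation test were tested on simulated data.

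Named genes were the 10 members, up to 4 genes with the smallest p from each of 2 pathway lists, and the 10 brighter, named probes with the highest r to Fos. The members, lists and rules were chosen with earlier results of these data known. The labels say that rats were divided at random but do not tie each array to a rat, so p-values measure the spread between arrays.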

Additional observations from a re-analysis of the deposited data

Results flagged for a closer look

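Fos in control 5 read 11.75, far from the other control arrays, of which the next read 9.90. The gap took up 70.4% of the range of the 6 control arrays, above Dixon's 95% limit for that number of values. Chance flags about 1 in 20 groups, and 20 groups of arrays were examined, of which this was the 1 flagged. Dusp1 and Egr1 were also high in control 5, at 12.09 and 10.30, while Junb, at 10.65, was not.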

How the results depend on the processing

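No member passed under any of the alternatives tried, and the smallest adjusted p was 0.641. Of 221 alternative values of the 10 differences 204 kept their sign. Egr1, Dusp1, Atf3, Jun and Klf4 kept theirs in all. Part of this was fixed in advance. The fits with the trend and robust options of eBayes, without dim probes and with the replicate block cannot change a difference. Their values are among the 204. Cyclic loess gave -0.00033 for Fos, averaging the pairs within a group -0.093 for Fos, median scaling 0.038 for Junb and 0.044 for Ier2, and the second probe 0.068 for Ier5. Leaving out 1 array at a time gave -0.15 to 0.38 for Fos, -0.16 to 0.039 for Junb, -0.017 to 0.035 for Nr4a1, -0.95 (without control 2) to -0.42 (without control 4) for Egr1, -0.85 to -0.42 for Dusp1 (the same arrays), -0.48 (control 2) to -0.20 (control 6) for Jun, -0.46 (control 3) to -0.18 (control 6) for Atf3, -0.67 (swimming 5) to -0.40 (control 4) for Ier5, -0.27 (swimming 5) to -0.0016 (control 4) for Ier2 and 0.14 (control 2) to 0.36 (control 3) for Klf4. The spread without single units was added after seeing the data. With the authors' processed intensities (values under 8 set to 8) limma called 1 probe, that of Nodal, no member (adjusted p = 0.0378; 723 at an unadjusted p under 0.05). It was at that floor in 5 control and 0 swimming arrays. For the correlations with Fos, 58 of 72 alternative values kept their sign. Jun turned to 0.0090 with offset 16, 0.00064 with no background correction, 0.023 with the authors' intensities, 0.13 with swimming 5 kept and 0.16 without the 2 farthest units. That last setting also gave 0.21 for Junb, -0.023 for Egr1, 0.73 for Klf4 and 0.17 for Nr4a1. Egr1 was -0.027 and Nr4a1 0.021 under median scaling, Egr1 -0.046 over 12 arrays, and as rho Egr1 was -0.048 and Klf4 0.071. With the replicate number as a block limma called 0 probes (1052 at an unadjusted p under 0.05), as without it, and each member's difference was the same by construction. The labels do not say that numbers pair rats, and same-numbered arrays correlated at -0.023 to 0.73, so the numbers were not taken as pairs. Against 1076 probes at an unadjusted p under 0.05, there were 1663 without control 2, 631 with the pairs averaged and 458 of the 11262 left after dim probes were dropped. Probes near the bottom of the scale, such as that of Nr4a1, can understate a change.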

Other observations

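Dusp1 and other immediate early genes also respond to glucocorticoids, and a list of 8 genes tied to glucocorticoids was measured. Per1, Sgk1 and Errfi1 are on it and also among the 42 further immediate early genes. Nr3c1, also on it, encodes the glucocorticoid receptor itself and differed by 0.089. Of these 8 genes 5 had positive differences, swimming minus control, with a median of 0.14. Limma called 0 of them, with 1 at an unadjusted p under 0.05 (12.5% of the list, against 4.78% of all probes). That one was Fkbp5, a chaperone of the glucocorticoid receptor, named after its values were seen. It averaged 11.29 ± 0.92 in swimming and 9.66 ± 1.5 in control rats (SD, n = 5 each; log2 intensity), and the fit gave 1.99 (SE 0.63; adjusted p from limma = 0.911). Of 8 heat shock genes 7 had positive differences (87.5%, against 49.4% of all probes), with a median of 0.11, and limma called 0, with 0 at an unadjusted p under 0.05.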
